A study of Homo sapiens with 10 samples.

Results

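Replication-type histone genes were followed in bortezomib-resistant (BR) and matched PT cells of HBL2 and JEKO, lines of mantle cell lymphoma, a tumour of mature B cells. A gene was counted as replication-type when a probe set carried exactly 1 symbol and that symbol was one of the linker histone genes H1-1 to H1-6 or a numbered gene of the H2AC, H2BC, H3C or H4C series. This gave 42 genes, measured by 48 probe sets, out of 19775 genes with a probe set of 1 symbol. They comprised 6 H1, 8 H2A, 13 H2B, 7 H3 and 8 H4 genes. Of these, 40 lie on chromosome 6, and H2AC25 and H2BC21 lie on chromosome 1. Where a gene had several probe sets, the one with the highest mean over the 10 arrays stood for it.

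The groups were HBL2 BR (3 arrays), HBL2 PT (3 arrays), JEKO BR (2 arrays) and JEKO PT (2 arrays). BR cells had been made resistant with bortezomib, an inhibitor of the proteasome, and PT is taken as the parental cells of the same line from knowledge of the study, because the labels give only the letters. All cells were cultured in logarithmic growth, and total RNA was labelled with biotin. Whether a BR line is 1 clone or a pool, and whether replicates were separate cultures, is not given in the sources used here, so p-values measure the spread between these samples only, which may be technical. The B cell label was checked against markers: all 5 B cell genes and the mantle cell lymphoma genes CCND1 and SOX11 lay at or above the array median on all 10 arrays, whereas 0 of 4 T cell and 0 of 4 myeloid genes did. Of these, CD3E and MPO did so on 7 arrays, and of other cell types the stromal gene COL1A1 did so on all 10 and the erythroid gene HBB on 9. The summed B cell score was 10.2 to 11.0 in HBL2 BR, 11.2 to 12.1 in HBL2 PT, 11.8 to 11.9 in JEKO BR and 11.5 to 11.7 in JEKO PT. Of 4 plasma cell genes 2 lay at or above the median on all arrays, and their summed score was 6.34 to 6.73 in HBL2 BR, 5.06 to 5.34 in HBL2 PT, 4.23 to 4.60 in JEKO BR and 3.74 to 3.95 in JEKO PT, and its part in the histone values was not tested.

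Replication-type histones are made in bulk while DNA is copied. The core histones H2A, H2B, H3 and H4 build the nucleosome around which DNA is wound, and the linker histone H1 binds where DNA enters and leaves it. Each class is encoded by many nearly identical genes in clusters, which are driven by the coactivator NPAT under cyclin E and CDK2. Their mRNAs lack introns and mostly end in a stem loop held by SLBP in place of a poly(A) tail, and they are degraded when DNA synthesis ends. Labelling by in vitro transcription usually starts from poly(A) tails, so the values need not follow total histone mRNA, and a probe set can bind transcripts of close relatives. In bulk RNA, fewer cells in S phase and less histone RNA per cell cannot be told apart.

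The promoters of 4 genes on which the comparisons turned are shown because H2A and H2B genes differ from the other classes in the motifs they carry. H1-2, H2BC12 and H2BC21 were lower in JEKO BR whichever single array was left out, and H2AC6 was lower in BR of both lines. The sequences are the 250 bases before the RefSeq start, 5′ to 3′ on the gene's strand, in build GRCh38.p14. Capitals mark any match, on either strand, to the octamer ATTTGCAT, the CCAAT box (CCAAT), the TATA box (TATAAA) or the H1 box (AAACACA). The octamer is the binding motif of POU factors such as OCT1, and the H1 box is a motif known from linker histone promoters. In H2BC12 matches to the TATA box on both strands overlap, and the first of its 2 listed starts was used. The windows lie at chr6:26056471-26056720 (minus strand, H1-2), chr6:26123922-26124171 (plus strand, H2AC6), chr6:27146859-27147108 (minus strand, H2BC12) and chr1:149886683-149886932 (minus strand, H2BC21).
H1-2: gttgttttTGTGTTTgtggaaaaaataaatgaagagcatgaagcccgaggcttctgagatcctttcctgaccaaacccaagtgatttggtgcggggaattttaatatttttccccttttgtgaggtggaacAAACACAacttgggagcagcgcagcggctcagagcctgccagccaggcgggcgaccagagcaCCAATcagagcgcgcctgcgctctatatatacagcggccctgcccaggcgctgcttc
H2AC6: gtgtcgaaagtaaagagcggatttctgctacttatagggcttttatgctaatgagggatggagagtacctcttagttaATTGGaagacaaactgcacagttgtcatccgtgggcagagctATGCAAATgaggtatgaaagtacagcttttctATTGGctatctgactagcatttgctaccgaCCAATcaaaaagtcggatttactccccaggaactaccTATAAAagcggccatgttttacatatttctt
H2BC12: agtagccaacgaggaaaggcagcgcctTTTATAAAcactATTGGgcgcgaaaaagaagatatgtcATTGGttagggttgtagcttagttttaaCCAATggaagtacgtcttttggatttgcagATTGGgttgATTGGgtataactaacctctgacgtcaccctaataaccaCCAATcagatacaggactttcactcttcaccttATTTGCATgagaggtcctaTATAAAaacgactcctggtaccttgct
H2BC21: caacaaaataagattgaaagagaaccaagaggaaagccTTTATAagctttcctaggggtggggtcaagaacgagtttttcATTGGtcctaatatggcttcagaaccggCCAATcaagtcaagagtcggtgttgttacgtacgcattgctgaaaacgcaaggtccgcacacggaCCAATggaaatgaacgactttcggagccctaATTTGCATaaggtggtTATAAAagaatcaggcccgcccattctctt

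RefSeq promoter windows of 300 bases, which run from 250 before to 50 after the start, were found for 40 of the 42 genes. The genes H3C11 and H4C1 are named only. The octamer was present in 16 of 40 windows, in 6 of 8 H2A and 10 of 13 H2B genes and in 0 of the H1, H3 and H4 genes, against 2.19% of all 27305 genes with a window. The H1 box was present in all 6 H1 windows and in 0 of the other members, against 6.94% of all genes. CCAAT was present in 35 windows, with 2 of 7 in the H4 class and every window of the other 4 classes, against 39.7% of all genes. TATAAA was present in 27 windows, against 14% of all genes. For 4 pairs of members the windows overlapped head to head: H2AC6 with H2BC4, H2AC14 with H2BC14, H2AC15 with H2BC15, and H2AC17 with H2BC17. A match describes these letters only and does not show that a factor binds there.

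Levels are given as the deposited score, a log-like value whose base is not stated. Every array holds the same set of scores, from 0 to 4.99 with a median of 0.73, so a score carries only a probe set's rank within its array, a change is a difference in score units and not a fold change, and a shift of most genes one way cannot be seen. Of the 42 genes, 36 reached the array median on at least 2 arrays and were tested. The other 6, H1-1, H2BC1, H2BC13, H3C1, H4C1 and H4C13, were removed. H2BC15 and H3C3 passed only through JEKO PT arrays and H3C11 only through HBL2 BR arrays. The 11 genes at or above the array median on all 10 arrays were H1-2, H1-3, H2AC6, H2AC14, H2AC17, H2BC5, H2BC6, H2BC9, H2BC12, H2BC21 and H4C11, with none from the H3 class. Tests used limma with 4 group means in 1 fit, and p-values were adjusted over all 14529 genes tested. A gene is called changed at an adjusted p under 0.05, and values after ± are standard errors beside a change. Percentages of all genes refer to those that met the same rule in the same fit.

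**Figure D1:**
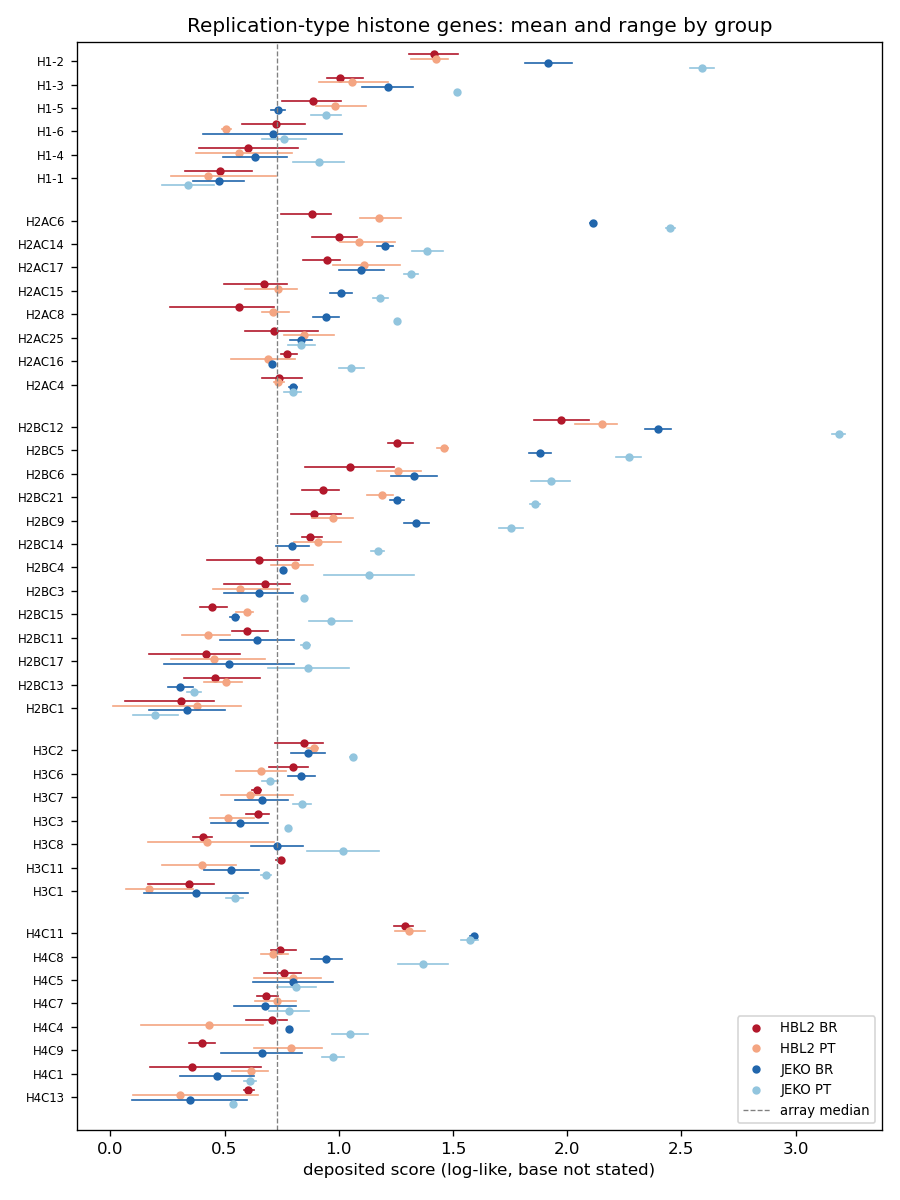
Deposited score of all 42 replication-type histone genes, by class from H1 at the top to H4 at the bottom, in HBL2 BR, HBL2 PT, JEKO BR and JEKO PT; points are group means, horizontal lines run from the lowest to the highest array, and the dashed line is the array median of 0.73. JEKO PT lies to the right of the other groups for H1-2, H2AC6 and the H2B genes H2BC12, H2BC5, H2BC6, H2BC21 and H2BC9, among others. The group means of H3 and H4 genes other than H4C11 and H4C8 lie between 0.17 and 1.06.

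In JEKO, several replication-type histone transcripts were lower in BR cells, most of them of the H2B class. Of 36 genes tested, 9 were called lower in JEKO BR, where 1.72% of all genes were, and 0 were called higher, where 2.56% of all genes were. At an unadjusted p under 0.05 limma gave 16 lower and 0 higher, against 7.45% and 10.2% of all genes. The 16 hold H2BC15, which entered the test only through JEKO PT, where it is high. The 9 were H1-2, H2AC6, H4C8 and the H2B genes H2BC5, H2BC6, H2BC9, H2BC12, H2BC14 and H2BC21. By class these were 1 of 5 tested H1 genes, 1 of 8 H2A, 6 of 11 H2B, 0 of 6 H3 and 1 of 6 H4. With no filter 8 of 42 were lower, H2BC14 being lost, against 0.91% of all genes, and 0 were higher, against 1.47%. Leaving out a single JEKO array lowered the count, and the share of all genes called lower fell as well. The count was 5 without BR replicate 1 (0.661% of all genes), 3 without BR replicate 2 (0.379%), 5 without PT replicate 1 (0.468%) and 4 without PT replicate 2 (0.468%). Each of these fits leaves 1 array in a JEKO group, which is assumed to vary like the other groups, so they are a limited check. H1-2, H2BC12 and H2BC21 were the 3 still called in every fit with 1 array left out. With percentile ranks in place of scores the count was 1, H2BC21, against 1.49% of all genes.

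H2BC12, an H2B gene of the chromosome 6 cluster, had scores of 2.34 and 2.45 in JEKO BR, against 3.16 and 3.22 in JEKO PT. Its change was -0.79 ± 0.087 (limma adjusted p = 9.23e-05). The groups did not overlap, and the JEKO PT mean stood at the 99.5th percentile of the array and the JEKO BR mean at the 97.7th. H2BC21, the H2B gene on chromosome 1, had scores of 1.22 and 1.28 in JEKO BR, against 1.88 and 1.84 in JEKO PT. It changed by -0.61 ± 0.078 (adjusted p = 3.32e-04). Both JEKO BR arrays lay below both JEKO PT arrays by more than the spread within either group.

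H2BC6 had scores of 1.43 and 1.23 in JEKO BR and 1.84 and 2.01 in JEKO PT, a change of -0.60 ± 0.11 (adjusted p = 0.00632). H2BC9 had 1.28 and 1.39 in JEKO BR and 1.81 and 1.70 in JEKO PT, a change of -0.42 ± 0.089 (adjusted p = 0.0151). These probe sets, like that of H2BC5, carry the _x_at suffix, with which the array's maker marks possible binding of related transcripts. H2BC5 had 1.93 and 1.83 in JEKO BR and 2.22 and 2.32 in JEKO PT, a change of -0.39 ± 0.074 (adjusted p = 0.00711). A second H2BC5 probe set changed by -0.44 (adjusted p = 0.0278 over all genes and the second probe sets). H2BC14 had 0.87 and 0.73 in JEKO BR and 1.20 and 1.14 in JEKO PT, a change of -0.37 ± 0.093 (adjusted p = 0.032). In each of these 4 genes the JEKO BR arrays lay below the JEKO PT arrays without overlap. The calls of H2BC5 and H2BC6 were lost without JEKO BR replicate 2 or JEKO PT replicate 2, and those of H2BC9 and H2BC14 without any 1 of the JEKO arrays.

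H1-2, a linker histone gene, had scores of 1.82 and 2.02 in JEKO BR, against 2.64 and 2.54 in JEKO PT. The change was -0.67 ± 0.091 (adjusted p = 5.85e-04), with means at the 93.5th percentile in JEKO BR and the 98.5th in JEKO PT. The other tested linker histones did not pass: H1-3 had 1.10 and 1.33 in JEKO BR and 1.52 and 1.52 in JEKO PT, a change of -0.30 ± 0.10 (adjusted p = 0.107), and H1-5 differed by -0.21. H2AC6, an H2A gene, had 2.10 and 2.12 in JEKO BR and 2.47 and 2.43 in JEKO PT, a change of -0.34 ± 0.085 (adjusted p = 0.0322). H4C8, an H4 gene, had 1.01 and 0.88 in JEKO BR and 1.48 and 1.26 in JEKO PT, a change of -0.42 ± 0.098 (adjusted p = 0.0227). The 2 JEKO PT arrays of H4C8 differed by 0.22 from each other. Its second probe set differed by -0.42 (adjusted p = 0.0734). The H2AC6 call was lost without any 1 of the JEKO arrays and that of H4C8 without JEKO BR replicate 1, JEKO BR replicate 2 or JEKO PT replicate 1.

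**Figure D2:**
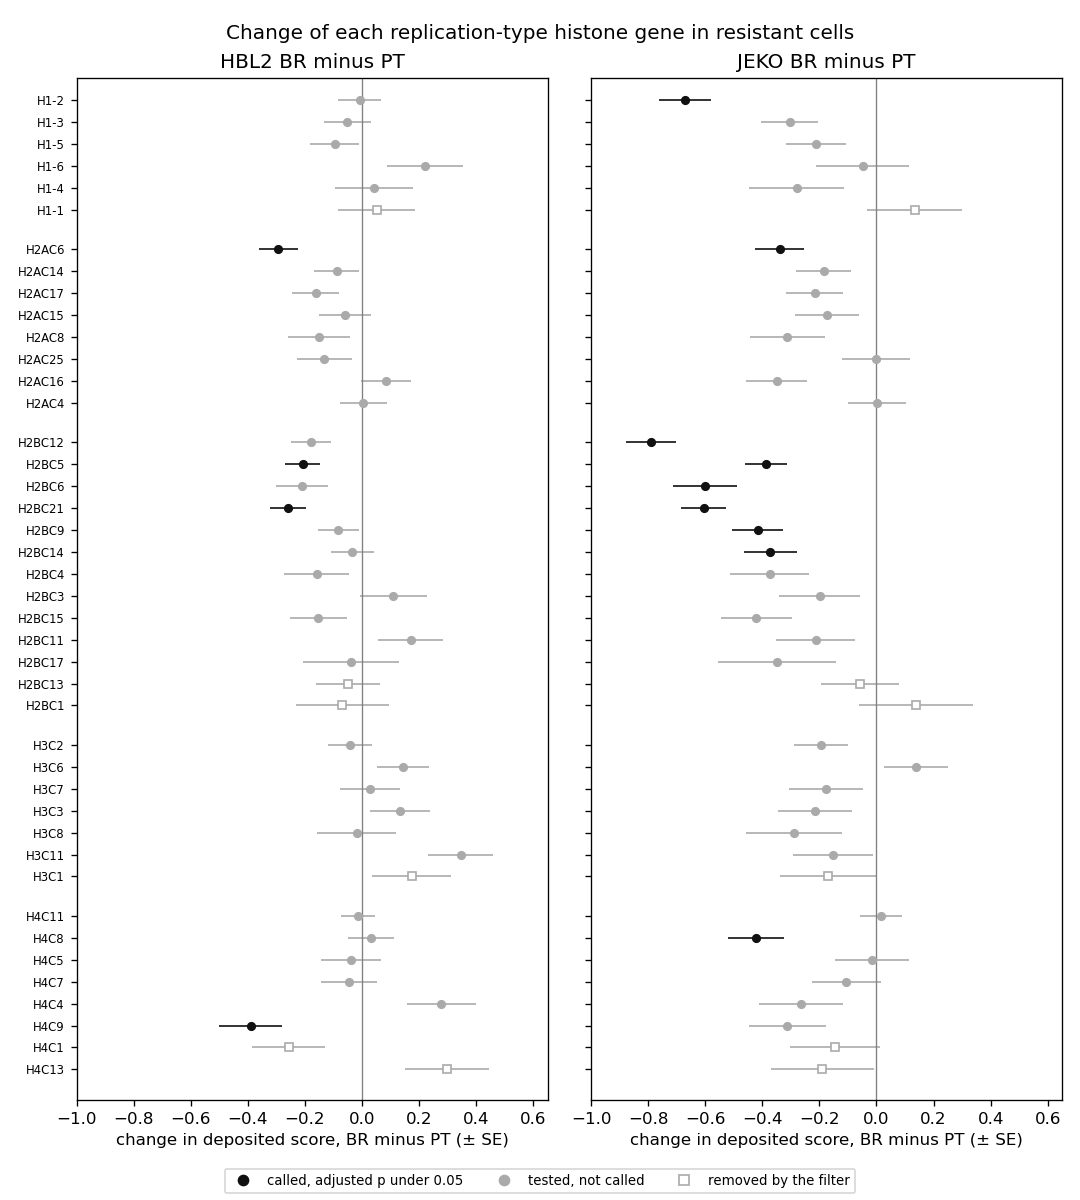
Change in deposited score, BR minus PT with its standard error, of each replication-type histone gene in HBL2 (left) and JEKO (right). Black points are called at an adjusted p under 0.05, 4 lower in HBL2 and 9 lower in JEKO, grey points were tested and not called, and open squares were removed by the filter and come from the fit with no filter.

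Most of the genes that were not called also had lower scores in JEKO BR. Over all 42 genes, 37 had a change below 0, against 47.6% of all genes, and the median change was -0.21, against 0.0086 over all genes. The JEKO BR arrays lay wholly below the JEKO PT arrays for 28 of 42 genes, against 20.8% of all genes, and wholly above for 1, H3C6, against 25.3%. The median changes by class were -0.25 for H1, -0.20 for H2A, -0.37 for H2B, -0.18 for H3 and -0.17 for H4. The H2B median score was 0.80 and 0.76 on the JEKO BR arrays, against 1.20 and 0.93 on the JEKO PT arrays. H4C11, the H4 gene with the highest mean, was an exception, with 1.60 and 1.58 in JEKO BR and 1.61 and 1.54 in JEKO PT (change 0.02 ± 0.073). Its probe set carries the _x_at suffix, as do those of H2AC14 and H3C8. H3C2, the H3 gene with the highest mean, had 0.79 and 0.94 in JEKO BR and 1.05 and 1.07 in JEKO PT, which did not pass (change -0.20 ± 0.094, adjusted p = 0.294). In the 4 head-to-head pairs all 8 genes had a change below 0 in JEKO, with H2AC6 at -0.34 and H2BC4 at -0.37, H2AC14 at -0.18 and H2BC14 at -0.37, H2AC15 at -0.17 and H2BC15 at -0.42, and H2AC17 at -0.22 and H2BC17 at -0.35.

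The control values of RNA quality moved with 1 of the JEKO arrays. The beta-actin 5′ minus 3′ value was -0.76 and -1.01 in JEKO BR and -0.70 and -0.82 in JEKO PT, and the GAPDH value was -0.31 and -0.64 in JEKO BR and -0.39 and -0.30 in JEKO PT, so JEKO BR replicate 2 was the lowest JEKO array in both. With beta-actin as a covariate 10 genes were called lower in JEKO BR, against 2.45% of all genes, and with GAPDH 8, against 1.03%. Without the 3 arrays of lowest beta-actin, 1 from JEKO and 2 from HBL2, the count was 3, against 0.447%. These settings were chosen partly after the data were seen.

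In HBL2 the count of genes called was close to the background. Of 36 tested, 4 were called lower in BR, where 6.86% of all genes were, and 0 were called higher, where 4.91% were. At an unadjusted p under 0.05 limma gave 6 lower and 2 higher, against 12.8% and 10.7% of all genes. The 2 higher hold H3C11, which entered the test only through HBL2 BR, where it is high. The 4 were H2AC6, H2BC5, H2BC21 and H4C9. With no filter 4 of 42 were lower, against 4.55% of all genes, and 0 higher, against 3.23%. The count was 2 without HBL2 PT replicate 2 (5.5% of all genes), 1 without HBL2 BR replicate 2 (4.81%) and 2 without HBL2 BR replicate 3 (6.13%). The HBL2 BR arrays lay wholly below the HBL2 PT arrays for 5 of 42 genes, against 12.1% of all genes, and wholly above for 3, against 10.7%. The median change over all 42 genes was -0.04, against -0.0030 over all genes, and 27 of 42 had a change below 0, against 50.9% of all genes. By class the medians were 0.017 for H1, -0.11 for H2A, -0.08 for H2B, 0.13 for H3 and -0.03 for H4. Changes were below 0 in 3 of 6 H1, 6 of 8 H2A and 11 of 13 H2B genes, and in 2 of 7 H3 and 5 of 8 H4 genes.

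H2AC6 had scores of 0.94, 0.75 and 0.97 in HBL2 BR, against 1.27, 1.16 and 1.09 in HBL2 PT. Its change was -0.29 ± 0.069 (adjusted p = 0.00966). H2BC21 had 1.0, 0.96 and 0.84 in HBL2 BR and 1.21, 1.12 and 1.24 in HBL2 PT, a change of -0.26 ± 0.063 (adjusted p = 0.0124). In both genes every HBL2 BR array lay below every HBL2 PT array, and the call was lost without HBL2 BR replicate 2 (H2AC6) or HBL2 BR replicate 3 (H2BC21). H2BC5 had 1.33, 1.22 and 1.21 in HBL2 BR and 1.48, 1.48 and 1.43 in HBL2 PT, a change of -0.21 ± 0.060 (adjusted p = 0.0326), but its second probe set differed by -0.10 (adjusted p = 0.563). H4C9, an H4 gene, had 0.34, 0.40 and 0.46 in HBL2 BR and 0.63, 0.93 and 0.82 in HBL2 PT, a change of -0.39 ± 0.11 (adjusted p = 0.0299). The calls of H2BC5 and H4C9 were each lost without 4 of the 6 HBL2 arrays left out in turn, among them HBL2 BR replicate 2 and HBL2 PT replicate 2. The HBL2 BR scores of H4C9 lay under the array median, in the range of dim probe sets, and in JEKO it had 0.84 and 0.48 in BR and 0.93 and 1.02 in PT (change -0.31, adjusted p = 0.241). H2BC12 had 1.97, 1.86 and 2.10 in HBL2 BR and 2.21, 2.03 and 2.22 in HBL2 PT, groups that overlapped (change -0.18 ± 0.071, adjusted p = 0.126). H1-2 had 1.42, 1.31 and 1.52 in HBL2 BR and 1.48, 1.32 and 1.48 in HBL2 PT, with no difference beyond the spread (change -0.01 ± 0.075, adjusted p = 0.966).

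H2AC6, H2BC5 and H2BC21 were called lower in BR of both lines, which is 3 of the 4 called in HBL2 and 3 of the 9 called in JEKO. All 3 stand on probe sets with the _s_at (H2AC6, H2BC21) or _x_at (H2BC5) suffix, both of which mark possible binding of several transcripts, so none of the 3 was tested when such probe sets were left out. Across the 42 genes the HBL2 and JEKO changes, which share no arrays, had a Pearson r of 0.35 and a Spearman rho of 0.38. This is a description over genes, many of which share sequence.

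**Figure D3:**
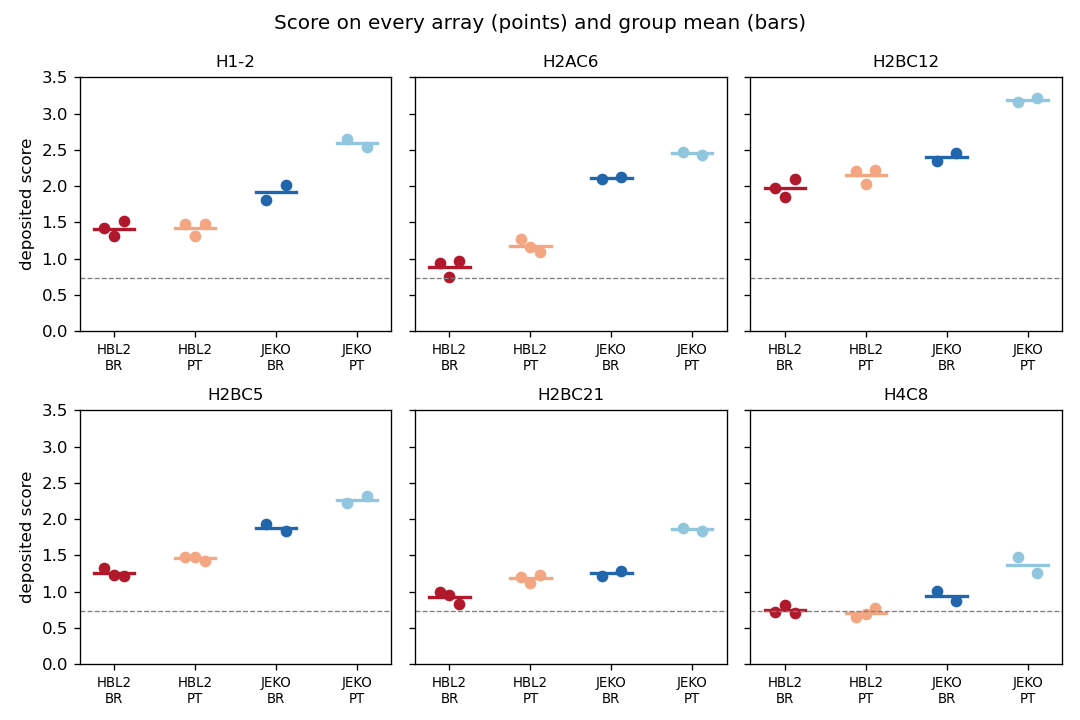
Deposited score on every array (points) and group mean (bars) for H1-2, H2AC6, H2BC12, H2BC5, H2BC21 and H4C8 in HBL2 BR, HBL2 PT, JEKO BR and JEKO PT, with the array median of 0.73 dashed. The JEKO BR points lie below the JEKO PT points in all 6 genes, whereas the HBL2 BR points lie below the HBL2 PT points in H2AC6, H2BC5 and H2BC21 only.

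Whether the change differed between the lines was tested directly as the HBL2 change minus the JEKO change. It was called above 0, that is, a larger fall in JEKO BR, for 4 of 36 genes, against 2.95% of all genes, and below 0 for 0 genes, against 5.76%. At an unadjusted p under 0.05 limma gave 11 above and 0 below, against 8.94% and 13.1% of all genes. The 11 hold H3C11, which entered the test only through HBL2 BR, where it is high. They also hold H2BC11, which would not have entered without the JEKO PT arrays, where it is high. Both tests favoured a difference above 0. The difference was 0.66 ± 0.12 for H1-2 (adjusted p = 0.00209) and 0.61 ± 0.11 for H2BC12 (adjusted p = 0.00268). It was 0.45 ± 0.13 for H4C8 (adjusted p = 0.0338) and 0.35 ± 0.10 for H2BC21 (adjusted p = 0.0409). For H2AC6, lower in BR of both lines, the difference was 0.05 ± 0.11 (adjusted p = 0.864). Over all 42 genes 7 had a difference below 0, against 51.9% of all genes. The count of 4 was 2 without HBL2 PT replicate 2, HBL2 BR replicate 1, JEKO PT replicate 1 or JEKO BR replicate 2, each left out alone, where 1.41% to 2.61% of all genes were called above 0, and H1-2 and H2BC12 were called in every such fit. With no filter it was 2 of 42, against 1.84% of all genes, with 0 below 0, against 3.79%, and with percentile ranks it was 0, against 2.26%.

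The PT cells of the lines themselves differed. Of 36 genes tested, 19 were called lower in HBL2 PT than in JEKO PT, where 9.25% of all genes were, and 0 were called higher, where 13.9% were. At an unadjusted p under 0.05 limma gave 26 lower and 0 higher, against 13.9% and 19.8% of all genes. The 26 hold H2BC15 and H3C3, which entered the test only through JEKO PT, where they are high. They also hold H2BC11, H2BC17 and H3C8, which reached the array median on 0 HBL2 arrays. Without the JEKO PT arrays these would not have entered either, so all such tests favoured a difference. H2BC11, H2BC15 and H3C8 are also among the 19 called. With no filter 18 of 42 were lower, against 6.19% of all genes, and 0 higher, against 9.32%. This comparison uses the same JEKO PT arrays as the JEKO change above. By class, 2 of 5 tested H1 genes, 5 of 8 H2A, 8 of 11 H2B, 1 of 6 H3 and 3 of 6 H4 were lower. Without JEKO PT replicate 1 the count was 10, against 5.07% of all genes. The HBL2 PT arrays lay wholly below the JEKO PT arrays for 30 of 42 genes, against 17.8% of all genes, and wholly above for 1, H2BC13, against 22.3%. Between the resistant cells, which share no array with that comparison, the HBL2 BR arrays lay wholly below the JEKO BR arrays for 15 of 42 genes, against 22.5% of all genes, and wholly above for 2, against 23.3%.

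The largest of these differences were in H2AC6 (-1.27 ± 0.077, adjusted p = 1.19e-08), H1-2 (-1.16 ± 0.083, adjusted p = 7.31e-08) and H2BC12 (-1.03 ± 0.080, adjusted p = 1.45e-07), with the scores given above. H2BC5 differed by -0.81, H2BC9 by -0.78, H2BC6 and H2BC21 by -0.67 each and H4C8 by -0.66. In HBL2, H2BC6 had 1.24, 0.85 and 1.05 in BR and 1.36, 1.26 and 1.17 in PT, and H2BC9 had 1.01, 0.79 and 0.88 in BR and 1.06, 0.88 and 0.98 in PT. H4C8 had 0.72, 0.81 and 0.70 in HBL2 BR and 0.66, 0.70 and 0.78 in HBL2 PT, and H2BC14, which differed by -0.26 between HBL2 PT and JEKO PT, had 0.86, 0.84 and 0.93 in HBL2 BR and 1.01, 0.80 and 0.91 in HBL2 PT. In these 4 genes the HBL2 BR and PT arrays overlapped.

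The other 10 genes called lower in HBL2 PT passed in no comparison of BR with PT. H1-3 had 0.96, 0.95 and 1.11 in HBL2 BR and 1.22, 0.91 and 1.04 in HBL2 PT, and differed between HBL2 PT and JEKO PT by -0.46 ± 0.092 (adjusted p = 0.00166). Of the H2A genes, H2AC8 had 0.26, 0.72 and 0.71 in HBL2 BR, 0.67, 0.69 and 0.78 in HBL2 PT, 1.0 and 0.89 in JEKO BR and 1.27 and 1.25 in JEKO PT (HBL2 PT minus JEKO PT -0.54, adjusted p = 0.00351). H2AC15 had 0.75, 0.50 and 0.77 in HBL2 BR, 0.82, 0.79 and 0.59 in HBL2 PT, 1.06 and 0.96 in JEKO BR and 1.22 and 1.15 in JEKO PT (-0.45, adjusted p = 0.00406). In both H2A genes every JEKO array, BR and PT, lay above every HBL2 array. H2AC16 had 0.75, 0.82 and 0.75 in HBL2 BR, 0.81, 0.53 and 0.73 in HBL2 PT, 0.71 and 0.70 in JEKO BR and 1.11 and 1.0 in JEKO PT (-0.37, adjusted p = 0.0121). H2AC14 had 1.04, 1.08 and 0.88 in HBL2 BR, 1.01, 1.01 and 1.25 in HBL2 PT, 1.17 and 1.24 in JEKO BR and 1.45 and 1.32 in JEKO PT (-0.30, adjusted p = 0.0207).

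Of the H2B genes, H2BC11 had 0.53, 0.57 and 0.69 in HBL2 BR, 0.31, 0.52 and 0.45 in HBL2 PT, 0.80 and 0.48 in JEKO BR and 0.88 and 0.84 in JEKO PT (-0.43, adjusted p = 0.0217). H2BC15 had 0.39, 0.51 and 0.43 in HBL2 BR, 0.62, 0.62 and 0.55 in HBL2 PT, 0.52 and 0.56 in JEKO BR and 1.06 and 0.87 in JEKO PT (-0.37, adjusted p = 0.0258). Apart from JEKO PT, most arrays of these genes lay under the array median. H2BC15 entered the test only through the JEKO PT arrays, where it is high, so its test favoured a difference. Without it and the other 2 genes that passed through 1 group alone, H3C3 and H3C11, 18 of 33 genes and 7 of 10 H2B genes were called lower in HBL2 PT. Those counts still hold H2BC11 and H3C8, which reached the array median on 2 JEKO PT arrays, 1 JEKO BR array and 0 HBL2 arrays. Without the JEKO PT arrays neither would have entered, so their tests favoured a difference as well. H3C8, an H3 gene, had 0.36, 0.44 and 0.41 in HBL2 BR, 0.38, 0.17 and 0.72 in HBL2 PT, 0.62 and 0.84 in JEKO BR and 1.18 and 0.86 in JEKO PT (-0.60, adjusted p = 0.0102). H4C4, an H4 gene, had 0.60, 0.76 and 0.77 in HBL2 BR, 0.67, 0.48 and 0.14 in HBL2 PT, 0.79 and 0.78 in JEKO BR and 1.13 and 0.97 in JEKO PT (-0.62, adjusted p = 0.00306). Both vary widely among the HBL2 PT arrays. H4C11 had 1.24, 1.30 and 1.33 in HBL2 BR and 1.38, 1.29 and 1.25 in HBL2 PT, and was lower in HBL2 PT than in JEKO PT (-0.27 ± 0.066, adjusted p = 0.00762). H3C2 had 0.72, 0.89 and 0.93 in HBL2 BR and 0.90, 0.86 and 0.91 in HBL2 PT and passed in none of the 4 comparisons.

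The remaining genes were called in none of the 4 comparisons. They were H1-4, H1-5 and H1-6 among the linker histones, H2AC4, H2AC17 and H2AC25, the H2B genes H2BC3, H2BC4 and H2BC17, the H3 genes H3C2, H3C3, H3C6, H3C7 and H3C11, and H4C5 and H4C7, beside the 6 removed by the filter. H3C11, an H3 gene that entered the test only through HBL2 BR arrays, had scores of 0.75, 0.76 and 0.73 in HBL2 BR and 0.55, 0.23 and 0.42 in HBL2 PT (change 0.35 ± 0.11, adjusted p = 0.0628). These scores span the array median, and because of that entry the difference is given as a description.

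A further 20 probe sets carry several symbols of this kind and therefore name no single gene. Added to the fit as features of their own, a setting chosen after the data were seen, 8 of the 20 were called lower in JEKO BR and 0 higher, against 1.78% and 2.56% of all 14549 features. In HBL2 0 were called by limma in either direction (lowest adjusted p = 0.123), against 6.85% lower and 4.91% higher. Their median change was -0.34 in JEKO and -0.08 in HBL2. Of 5 H4 probe sets with the same 14 symbols, 1 averaged 2.97 in JEKO BR and 3.57 in JEKO PT (change -0.60, adjusted p = 0.0036), beside 3.29 in HBL2 BR and 3.51 in HBL2 PT. It differed by -0.06 between HBL2 PT and JEKO PT (adjusted p = 0.724). The other 4 were not called in JEKO, with changes of -0.34 (adjusted p = 0.0978), -0.12 (adjusted p = 0.715), -0.08 (adjusted p = 0.751) and -0.0052 (adjusted p = 0.992). An H2A probe set of 2 symbols averaged 2.02 in JEKO BR and 2.73 in JEKO PT (change -0.71, adjusted p = 3.77e-04). Its scores in HBL2 were 1.82, 1.62 and 1.58 in BR and 1.80, 1.52 and 1.64 in PT. Another with the same symbols changed by -0.64 in JEKO (adjusted p = 4.99e-04), and a further one by -0.13 (adjusted p = 0.663). An H3 probe set of 10 symbols had 1.20 and 1.09 in JEKO BR and 1.65 and 1.63 in JEKO PT (change -0.50, adjusted p = 0.00195), and a second with the same symbols, which reached the array median on 1 array only, differed by -0.13 (adjusted p = 0.735). The JEKO count of 8 was 5 without JEKO PT replicate 1, JEKO PT replicate 2 or JEKO BR replicate 2, each left out alone. These probe sets and the genes above share sequence and are not independent.

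Most replacement histones are made outside S phase as well, from mRNAs with poly(A) tails. This does not hold in full for every gene of the list used, H2AX among them. Of 13 measured, 8 were tested, and in JEKO 0 were called by limma in either direction (0 higher and 2 lower at an unadjusted p under 0.05, against 10.2% and 7.45% of all genes). H2AZ1, which encodes H2A.Z, had 3.04 and 3.11 in JEKO BR and 3.39 and 3.25 in JEKO PT (change -0.24, adjusted p = 0.0864), and H2AX, the damage-marking H2A, differed by -0.34 (adjusted p = 0.0689). H3-3A, an H3.3 gene, differed by 0.08 in JEKO and 0.24 in HBL2 (adjusted p = 0.129), and CENPA, the centromeric H3, by -0.11 and -0.07. In HBL2, 1 of the 8 was called higher in BR and 0 lower, against 4.91% and 6.86% of all genes. The 1 called was H2AZ2, with 2.77, 2.79 and 2.68 in BR and 2.46, 2.65 and 2.47 in PT (change 0.22, adjusted p = 0.036). It was no longer called in 6 of the 10 fits that left out 1 array. The median over the 13 was -0.06 in JEKO and 0.014 in HBL2.

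Of 23 genes that act in histone transcription and 3′ end formation, 0 were called by limma in JEKO (0 higher and 7 lower in BR at an unadjusted p under 0.05, against 10.2% and 7.45% of all genes). SLBP, the stem-loop binding protein, had 2.26 and 2.19 in JEKO BR and 2.61 and 2.46 in JEKO PT (change -0.31, adjusted p = 0.142). NPAT had 1.49 and 1.46 in JEKO BR and 1.74 and 1.61 in JEKO PT (change -0.21, adjusted p = 0.135), and CASP8AP2, a partner of NPAT in histone locus bodies, differed by -0.28 (adjusted p = 0.164). For these 3 genes, named by role, the JEKO BR arrays lay below the JEKO PT arrays, as for 20.8% of all genes, but the differences did not pass. For TUT7 and CCNE1 of the same list the JEKO BR arrays lay wholly above. Of the 23 genes, 13 had a change below 0 in JEKO, against 46.6% of all genes tested, and the median change was -0.04. In HBL2 SLBP, NPAT and CASP8AP2 differed by -0.02, 0.0089 and 0.15. There 1 of the 23 was called lower in BR and 0 higher, against 6.86% and 4.91% of all genes. The 1 called was POU2AF1, the B cell coactivator of octamer factors, with 1.65, 1.72 and 1.99 in BR and 2.79, 2.67 and 2.87 in PT (change -0.99, adjusted p = 9.05e-07). In JEKO POU2AF1 had 3.05 and 3.26 in BR and 3.03 and 3.14 in PT.

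Of 27 histone chaperone genes, 0 were called lower in JEKO BR, where 1.72% of all genes were, and 1 was called higher, where 2.56% were. It was NAP1L1, a chaperone of H2A and H2B, with 3.69 and 3.89 in JEKO BR and 3.44 and 3.48 in JEKO PT (change 0.33, adjusted p = 0.0382), and 6 of the 10 fits that left out 1 array did not call it. NAP1L1 was also higher in HBL2 BR (0.34, adjusted p = 0.00341), a call kept in all 10. In HBL2, NPM3, a nucleoplasmin, was higher (0.34, adjusted p = 0.0119), and HJURP, which loads CENPA, was lower (-0.19, adjusted p = 0.0324), but the NPM3 call was lost without HBL2 BR replicate 1 or HBL2 BR replicate 2, and the HJURP call without any 1 of 5 HBL2 arrays. By count, 2 of the 27 were called higher and 1 lower in HBL2 BR, against 4.91% and 6.86% of all genes. The subunits of the replication-coupled H3 and H4 chaperone CAF-1 differed in JEKO by 0.014 (CHAF1A) and -0.13 (CHAF1B), and ASF1B and NASP, which carry H3 and H4, by -0.10 and -0.12, with none called. In HBL2 these 4 genes differed by 0.20, 0.08, -0.15 and -0.03 and were likewise not called.

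Because replication-type histone mRNA follows DNA synthesis, a list of 46 genes, mostly of S phase and DNA replication, was set beside it. The list also holds CCND1, named above as a mantle cell lymphoma gene, and MKI67, so its counts are not of replication genes alone. In JEKO 1 was called higher in BR and 2 lower, against 2.56% and 1.72% of all genes, with a median change of -0.05. MCM10, a replication initiation factor, had 1.49 and 1.44 in JEKO BR and 1.97 and 1.79 in JEKO PT (change -0.42, adjusted p = 0.00745). TYMS, thymidylate synthase, had 2.68 and 2.66 in JEKO BR and 3.0 and 2.96 in JEKO PT (change -0.32, adjusted p = 0.0104). RPA1, a subunit of the single-strand binding protein RPA, was higher in JEKO BR (0.27, adjusted p = 0.0287). Without JEKO PT replicate 1 or JEKO BR replicate 2 none of the 46 was called, and without JEKO PT replicate 2 or JEKO BR replicate 1 only 1, MCM10. PCNA, the sliding clamp, differed by -0.09 (adjusted p = 0.665) and the proliferation marker MKI67 by 0.018. In JEKO 34 of the 46 had a change below 0, against 46.6% of all genes tested. Limma gave 8 of the 46 lower and 2 higher at an unadjusted p under 0.05, against 7.45% and 10.2% of all genes.

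In HBL2 the S phase genes had more rises than falls, with 8 called higher and 2 lower, against 4.91% and 6.86% of all genes, and a median change of 0.04. MCM10 was higher by 0.33 (adjusted p = 0.00267) and RPA3, an RPA subunit, by 0.33 (adjusted p = 0.0436), while MCM6, a subunit of the replicative helicase, fell by 0.34 (adjusted p = 0.00177) and RFC4, of the clamp loader, by 0.23 (adjusted p = 0.0175). The calls of MCM10 and MCM6 held without any single array, while the 8 and 2 genes called became 1 and 1 without HBL2 BR replicate 1 or HBL2 BR replicate 2. The RPA3 call was lost in 8 of the 10 fits that left out 1 array, and the RFC4 call in 3. The change of MCM10 differed between the lines by 0.75 (adjusted p = 2.63e-04) and that of TYMS by 0.38 (adjusted p = 0.00897). The part of DNA synthesis in the histone values was not tested.

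**Figure D4:**
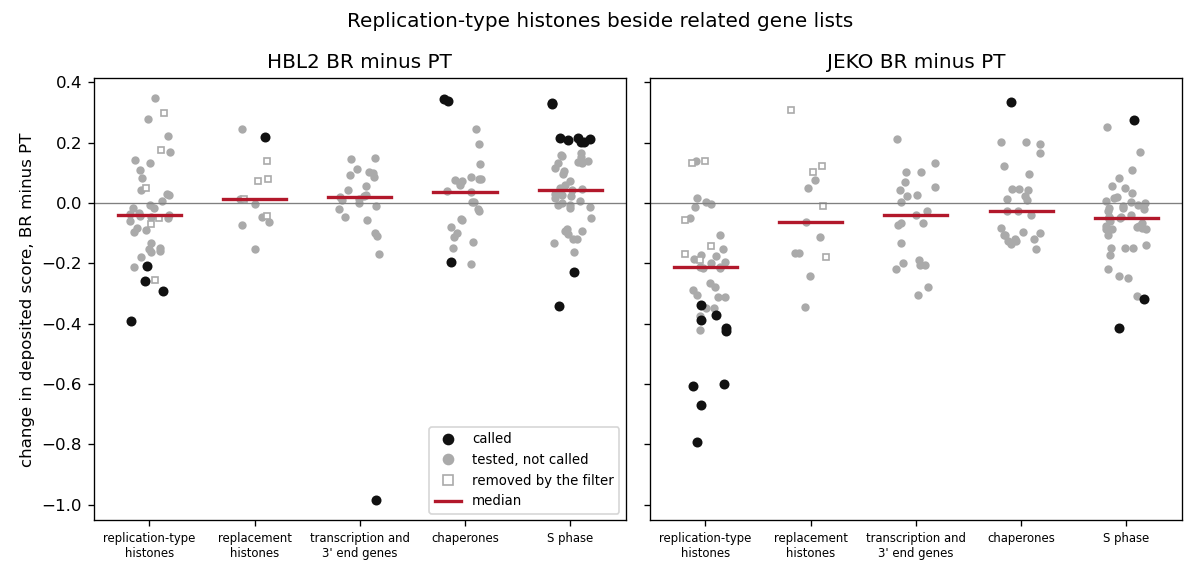
Change in deposited score, BR minus PT, in HBL2 (left) and JEKO (right) for the 42 replication-type histone genes, 13 replacement histones, 23 genes of histone transcription and 3′ end formation, 27 histone chaperones and 46 genes of the S phase list. Each point is a gene, black where called, open where removed by the filter, and the red line is the median over all genes of a list, which lies at -0.21 for replication-type histones in JEKO and between -0.06 and 0.04 for the other lists in both lines.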

How the data were processed

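Messenger RNA was measured on 10 Affymetrix arrays of BR and PT cells of the lines HBL2 and JEKO. All values come from 1 table of deposited scores for 54675 probe sets. Per the submitters' processing notes the authors used MAS5 (version not stated), and neither later steps nor a log base are stated. The score was found to hold the same sorted values on every array (largest difference 0), and no detection calls were used. All 10 arrays had a column, and 0 columns were left aside. Of the probe sets, 41091 had 1 symbol in the platform annotation, and probe sets with several symbols stayed out of the main fit.

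Probe sets that reached the 50th percentile of the array on 2 or more arrays were kept, and the kept one with the highest mean stood for its gene. Linear models came from limma 3.58.1 (R 4.3.3), with eBayes and a trend on intensity, and had 4 group means, 6 residual degrees of freedom and a mean prior of 9.89. Tests were two-sided with Benjamini-Hochberg adjustment over 14529 genes. The code was tested on simulated data. The correlation between arrays of a group was 0.932 to 0.958. Precision is limited by the number of arrays. Figures used matplotlib 3.10.9.

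The members and the gene lists were chosen with earlier results of these data known. Values on every array are given for each gene called in at least 1 of 4 contrasts and for the gene with the highest mean of each class. Of each other list up to 4 called genes with the largest change per line are named, with a few named by role. POU2AF1 in JEKO, H2AX and MKI67, and probe sets with several symbols, were singled out after their values were seen. Promoter sequences and motifs came from RefSeq, build GRCh38.p14.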

Additional observations from a re-analysis of the deposited data

Results flagged for a closer look

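The change between BR and PT differed between HBL2 and JEKO for 4 genes, as tested by the interaction term of the limma fit (HBL2 change minus JEKO change, adjusted over 14529 genes). The difference was 0.663 for H1-2 (SE 0.118, adjusted p = 0.00209) and 0.612 for H2BC12 (SE 0.112, adjusted p = 0.00268). It was 0.454 for H4C8 (SE 0.126, adjusted p = 0.0338) and 0.347 for H2BC21 (SE 0.100, adjusted p = 0.0409). In each case the JEKO BR arrays lay below the JEKO PT arrays, and the HBL2 change was smaller in size. Of the alternatives in which a gene was tested, H2BC21 was no longer called in 14 of 21, among them the fit with no filter, the replicate block and 7 of the 10 fits with 1 array left out, and H4C8 in 11 of 22. The call of H1-2 was lost with percentile ranks, and that of H2BC12 with normal scores and with percentile ranks, where its difference was -0.23 percentile points. With groups of 2 or 3 arrays, single outlying arrays were not looked for.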

How the results depend on the processing

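No alternative called a gene higher in JEKO BR or in HBL2 PT than in JEKO PT. In HBL2, 1 was called higher with array weights (8.22% of all genes) or with no intensity trend (3.96%) and 2 without HBL2 PT replicate 1 (5.16%). The count of genes called in HBL2 (4) was 1 of 27 tested without _x_at and _s_at probe sets, 2 without the 3 arrays of lowest beta-actin, and 1 to 5 with 1 array left out. The JEKO count (9) was 4 of 27 without _x_at and _s_at probe sets, 1 with percentile ranks, 5 with normal scores, 3 without the 3 arrays of lowest beta-actin, and 3 to 9 with 1 array left out. The count that differed between the lines (4) was 2 with no filter, 9 with array weights, 0 with percentile ranks, 1 with normal scores, 2 with GAPDH as a covariate, 2 without the 3 arrays of lowest beta-actin, and 2 to 5 with 1 array left out. The count lower in HBL2 PT than in JEKO PT (19) was 12 of 13 tested with a 75th percentile filter, 11 of 27 without _x_at and _s_at probe sets, and 10 to 20 with 1 array left out. With percentile ranks the difference for H2BC12 turned to -0.23 percentile points (adjusted p = 0.94); a rank scale leaves little room near the top of an array. Other alternatives kept the counts within 1.5 times. Of all genes, 5.76% were called lower in HBL2 BR, 1.7% in JEKO BR and 8.4% in HBL2 PT without _x_at and _s_at probe sets. In JEKO BR 1.49% were lower with percentile ranks and 1.26% with normal scores. Between the lines 1.84% were above 0 with no filter, 5.11% with array weights and 1.39% with GAPDH. Percentile ranks gave 2.26% there and normal scores 2.37%. With the 75th percentile filter 14.6% were lower in HBL2 PT. GAPDH and the arrays of lowest beta-actin were chosen after seeing the data. The labels do not say whether replicate numbers pair the samples. Correlations of deviations between BR and PT arrays of the same number were low (0.017, 0.14 and 0.0075 in HBL2 and 0.078 in JEKO). Low values cannot show that samples were not paired, and with 2 arrays a group JEKO gives only 1 value. With the replicate block 4 genes were called in HBL2, 9 in JEKO and 3 differed between the lines, H2BC21 being lost, and the block was not fitted between PT cells of different lines. The 6 genes dimmer than the filter limit what can be said of them, and JEKO has 2 arrays a group.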
